A study of Homo sapiens with 18 samples.

Results

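The 8 genes described here are grouped under damage reversal and mismatch repair, processes that act on the DNA damage that temozolomide leaves. They are the damage-reversal genes MGMT and ALKBH2, the recognition subunits MSH3 and MSH6, the MutL subunits MLH3, PMS1 and PMS2, and the exonuclease EXO1. They were taken by symbol from the deposited gene table, where all 8 were found among 46218 gene IDs. RNA was sequenced from 3 established human glioblastoma lines, U118-MG, T98G and LN229, each carrying a CRISPR guide against DDA1 (sgDDA1) or a control guide (sgCon). The 6 groups, U118-MG sgDDA1, U118-MG sgCon, T98G sgDDA1, T98G sgCon, LN229 sgDDA1 and LN229 sgCon, had 3 libraries each, 18 in all, and the medium was the same for every group, DMEM with 10% serum. The labels name no temozolomide treatment in any group, so the values are levels in cells not stated to have met the drug. They do not say whether the guide-bearing cells were a pool or 1 clone, how the guides were delivered, or whether replicate libraries stem from independent cultures. The p-values therefore reflect the scatter of these libraries, part of which may be technical.

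Temozolomide methylates DNA, and its most toxic product is a methyl group on the O6 position of guanine. MGMT takes that methyl group onto its own cysteine and is used up in doing so, and glioblastomas with a methylated, silent MGMT promoter are known to respond better to the drug. Where the lesion persists, it pairs with thymine, and mismatch repair recognises the pair, cuts out the new strand and repeats this futile cycle until the damage kills the cell, so that loss of mismatch repair is a known route to resistance.

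DDA1, a small subunit that binds DDB1 in CRL4 ubiquitin ligases and the target of the guide, was read first in every group. In T98G it averaged 57.3 ± 2.20 CPM with sgDDA1 and 65.6 ± 3.68 CPM with sgCon (SD, n = 3 each), and in LN229 33.7 ± 1.40 and 48.6 ± 0.829 CPM. CPM are counts scaled to a common library size, here with TMM factors over the 18 libraries. In U118-MG as labelled the sgDDA1 mean was 63.0 ± 3.72 CPM and the sgCon mean 59.3 ± 11.2 CPM, so DDA1 RNA was not lower there. The 3 libraries labelled U118-MG sgCon had correlations of log2 CPM of 0.9535 to 0.9787 with the LN229 sgCon mean and of 0.9616 to 0.9865 with the LN229 sgDDA1 mean, against 0.8442 to 0.864 with the mean of U118-MG sgDDA1. They go against their line label and are called the libraries labelled U118-MG sgCon throughout. Their library 1 stood apart from libraries 2 and 3 (chi-square per gene of 152 and 153), which differed from each other by 10. In U118-MG sgDDA1, library 1 also differed more from libraries 2 and 3 (17.8 and 19.4) than these did from each other (3.53). Pairs within the T98G and LN229 groups gave 3.8 to 6.31. Library totals were 44.9 to 55.1 M counts, with 94.1 M in LN229 sgCon 1. The defining glial markers were partly at 0 or low: S100B had no count in T98G, and the summed level of 10 astroglial and glioma markers was 3954 to 4198 CPM in U118-MG sgDDA1, 2600 to 3363 CPM in the T98G libraries and 218.8 to 234.7 CPM in the LN229 libraries. The sum does not stand for each marker. In T98G sgCon against LN229 sgCon, VIM, CD44 and SOX9 were called higher, and SOX2, OLIG2, NES, SLC1A3 and AQP4 lower. The median log2 fold change of the 9 tested was -2.09, where 38.1% of all genes were called higher and 39.8% lower. Of the other marker lists, the summed level of 4 fibroblast and pericyte markers was 2718 to 3377 CPM in U118-MG sgDDA1, 238 to 348.4 CPM in the libraries labelled U118-MG sgCon, 220.3 to 228.5 CPM in T98G sgDDA1, 180.1 to 184 CPM in T98G sgCon, 27.27 to 31.48 CPM in LN229 sgDDA1 and 12.63 to 14.4 CPM in LN229 sgCon. With sgDDA1 all 4 were called higher in LN229 and 2 in T98G. The sum of 4 epithelial markers was 4.143 to 5.24 CPM in U118-MG sgDDA1, 231.4 to 371.4 CPM in the libraries labelled U118-MG sgCon, 69.47 to 74.54 CPM in T98G sgDDA1, 89.66 to 94.58 CPM in T98G sgCon, 129.9 to 133 CPM in LN229 sgDDA1 and 77.65 to 80.74 CPM in LN229 sgCon. No marker of either list was at 0 in any group. Summed immune markers stayed at or below 0.594 CPM in every library. These lists move with the lines, and some of them with the guide, and their part in the results was not tested.

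The 250 bases upstream of the RefSeq start are shown for the pair of members that differ most between T98G and LN229, MGMT and MLH3 (RefSeq, GRCh38.p14). The CpG dinucleotides, the bases at which a promoter can be methylated, are in capitals.
MGMT chr10:129466991-129467240 (plus strand): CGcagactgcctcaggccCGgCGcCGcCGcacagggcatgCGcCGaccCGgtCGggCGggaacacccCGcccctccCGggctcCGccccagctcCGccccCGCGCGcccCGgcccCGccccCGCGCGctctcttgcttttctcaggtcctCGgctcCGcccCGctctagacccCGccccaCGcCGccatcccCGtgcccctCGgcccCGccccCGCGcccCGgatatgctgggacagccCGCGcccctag
MLH3 chr14:75051468-75051717 (minus strand): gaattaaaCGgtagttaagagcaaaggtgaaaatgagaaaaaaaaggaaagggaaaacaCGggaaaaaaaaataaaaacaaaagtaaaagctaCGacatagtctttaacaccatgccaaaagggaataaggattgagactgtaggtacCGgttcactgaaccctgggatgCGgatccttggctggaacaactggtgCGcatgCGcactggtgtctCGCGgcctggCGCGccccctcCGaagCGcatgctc
The MGMT window holds 36 CpG, a count that 4.73% of 27305 promoter windows of the same length reach (their median is 11), and 8 matches of GGGCGG counted on both strands, which 42.3% of windows hold at least once. The MLH3 window holds 13 CpG, a count that 46.4% of windows reach, at a GC content of 47.2% against 80.4% in MGMT. A match of letters is not a binding site, and DNA methylation was not measured here.

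Levels per gene length were compared on the deposited FPKM scale. EXO1 and MSH6 had the highest mean FPKM of the 8 members in most groups, at 8.64 and 10.97 in U118-MG sgDDA1, 25.8 and 16.4 in T98G sgDDA1, 33.7 and 15.4 in T98G sgCon, 56.7 and 26.2 in LN229 sgDDA1, and 52.8 and 28.96 in LN229 sgCon. MGMT had the lowest FPKM of the 8 in all 6 groups, at 0.965 ± 0.0116 in T98G sgDDA1 and 1.01 ± 0.0757 in T98G sgCon (SD, n = 3 each), where it was highest. MLH3 was next lowest in all 6 groups, with 4.45 ± 0.477 in T98G sgDDA1 and 0.352 ± 0.0223 in LN229 sgCon. The length behind the FPKM of MGMT (6527 bases) and PMS2 (6231 bases) exceeds the joined exons of GENCODE 29 (3557 and 3936 bases), so the FPKM of these genes may be low by that ratio.

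**Figure D1:**
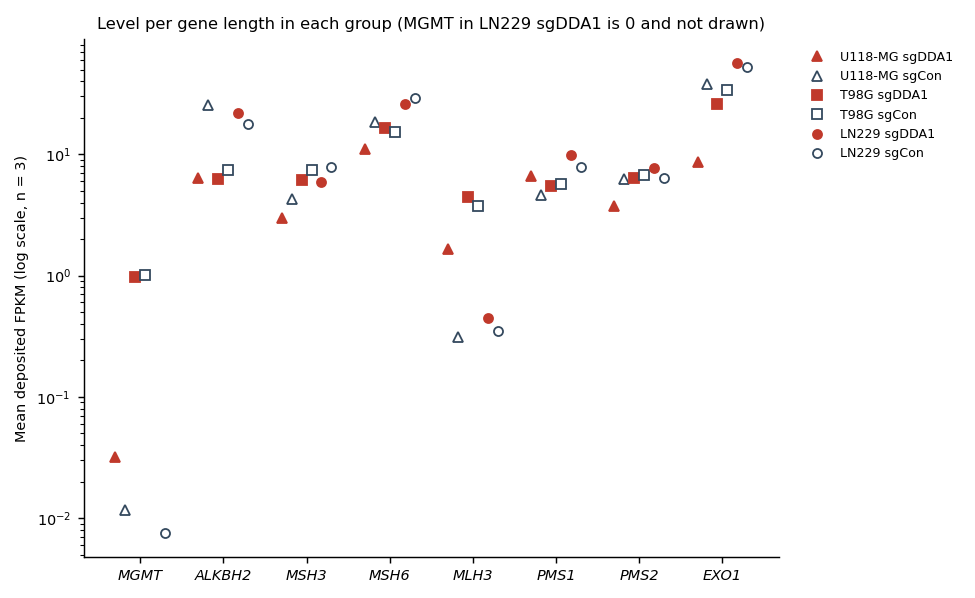
Mean deposited FPKM of the 8 members (log axis) in each group of 3 libraries, with U118-MG as triangles, T98G as squares and LN229 as circles, filled for sgDDA1 and open for sgCon. MGMT spans from 0.965 and 1.01 FPKM in the T98G groups to 0.00749 FPKM in LN229 sgCon and 0 FPKM in LN229 sgDDA1, which a log axis cannot show, and EXO1 from 8.64 FPKM in U118-MG sgDDA1 to 56.7 FPKM in LN229 sgDDA1.

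The lines were set against each other in 3 comparisons, U118-MG sgDDA1 against T98G sgDDA1, U118-MG sgDDA1 against LN229 sgDDA1, and T98G sgCon against LN229 sgCon. The first 2 share the U118-MG libraries. MGMT was detected at a steady level in T98G alone of the 3 lines, MLH3 was several-fold higher in T98G and in U118-MG than in LN229, and EXO1 was several-fold lower in U118-MG sgDDA1 than in either other line. Called means an adjusted p under 0.05 in edgeR's quasi-likelihood test. MGMT passed the filter on low counts only through the T98G libraries, so its differences between lines are given as ratios of counts with no test, and the counts and medians that follow are over the other 7 members, all of which passed. In U118-MG against T98G 1 of these 7 was higher and 5 were lower, where 58.6% of 24418 genes tested were called (29% higher, 29.6% lower). In U118-MG against LN229 1 was higher and 5 lower, with 72.5% of genes called (34.8% higher, 37.7% lower), and in T98G against LN229 3 were higher and 4 lower, with 77.9% of 23082 genes called (38.1% higher, 39.8% lower). The median log2 fold change of the 7 was -0.59, -0.575 and -0.26 in these comparisons, against -0.01, -0.10 and -0.05 over all genes tested.

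The TMM factors of U118-MG sgDDA1 were 0.8205 to 0.8263, against 0.925 to 1.15 in the T98G and LN229 libraries. Scaling by library totals alone, an alternative chosen after the data were seen, moved the median of all genes by -0.176 in U118-MG against T98G, by -0.474 in U118-MG against LN229 and by -0.205 in T98G against LN229 (log2). In U118-MG against LN229 it moved the share of called genes that were higher to 33.3%, against 48.0% with TMM.

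MGMT, the suicide methyltransferase, had 2, 12 and 16 counts in the U118-MG sgDDA1 libraries, 317, 308 and 328 counts in T98G sgDDA1 and 0 counts in all 3 LN229 sgDDA1 libraries. The same gene had 361, 326 and 360 counts in T98G sgCon and 6, 4 and 0 in LN229 sgCon. As scaled levels these were 0.0539, 0.304 and 0.404 CPM in U118-MG sgDDA1, 6.81, 6.66 and 6.85 CPM in T98G sgDDA1, and 6.97, 6.35 and 7.39 CPM in T98G sgCon. No T98G library came near any library of another line, and the T98G groups overlapped with each other. In bulk RNA, fewer cells with the transcript and less transcript per cell cannot be told apart. In LN229 sgDDA1, 0 of 151775282 counts allow a level of up to 0.0198 CPM, 3 counts of that total, by counting error alone.

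Over summed counts and unscaled totals, MGMT in U118-MG sgDDA1 stood at 0.0337 of its level in T98G sgDDA1 (95% exact interval 0.0226 to 0.0484). Set against 3 counts over the LN229 sgDDA1 group, it was 10.7-fold higher in U118-MG sgDDA1 and 319-fold higher in T98G sgDDA1. These 2 values leave out the counting error of the higher group and the scatter between libraries. In T98G sgCon MGMT was 126 times the LN229 sgCon level (95% exact interval 68.1 to 263). The order of levels was thus T98G, then U118-MG sgDDA1, then LN229, and the U118-MG sgDDA1 library with 2 counts lay among the values of LN229 sgCon (0.0587, 0.0752 and 0 CPM) and of the libraries labelled U118-MG sgCon (0.143, 0 and 0.0759 CPM).

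ALKBH2, a dioxygenase that strips methyl groups from adenine and cytosine in DNA, ran in another order. It had 17.0, 17.2 and 19.5 CPM in U118-MG sgDDA1, 15.9, 15.1 and 15.6 CPM in T98G sgDDA1 and 42.8, 42.5 and 47.1 CPM in LN229 sgDDA1. U118-MG sgDDA1 lay below LN229 sgDDA1 by -1.30 on the log2 scale (SE 0.10, edgeR adjusted p = 3.97e-10), and T98G sgCon lay below LN229 sgCon by -1.05 (SE 0.06, edgeR adjusted p = 1.12e-17). Between U118-MG sgDDA1 and T98G sgDDA1 the difference was 0.20 (95% interval -0.01 to 0.42) and did not pass, though the libraries did not overlap. It passed with DESeq2 (0.25) and in a fit of those groups alone (0.22).

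MSH6, the mismatch subunit that reads single mispairs and the pair of methylated guanine with thymine, was lowest in U118-MG. It had 135, 149 and 154 CPM in U118-MG sgDDA1, 190, 193 and 196 CPM in T98G sgDDA1 and 243, 245 and 263 CPM in LN229 sgDDA1, with no overlap between any 2 of these groups. U118-MG lay below T98G by -0.40 on the log2 scale (SE 0.13, edgeR adjusted p = 0.00938) and below LN229 by -0.78 (SE 0.13, adjusted p = 1.28e-05). T98G sgCon lay below LN229 sgCon by -0.71 (SE 0.04, adjusted p = 5.38e-18). MSH3, whose dimer reads larger insertion and deletion loops, had 19.7, 20.2 and 18.3 CPM in U118-MG sgDDA1, 36.8, 34.6 and 34.2 CPM in T98G sgDDA1 and 26.4, 29.2 and 27.6 CPM in LN229 sgDDA1. U118-MG lay below both other lines, by -0.86 (SE 0.12, adjusted p = 3.72e-06) against T98G and by -0.52 (SE 0.12, adjusted p = 0.000764) against LN229. The higher MSH3 of T98G sgCon over LN229 sgCon (0.14, SE 0.05, edgeR adjusted p = 0.0203) turned to -0.07 with library totals, and it missed the threshold in the fit of all 18 libraries and without T98G sgCon 1 (0.12) or LN229 sgCon 3 (0.09).

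MLH3, a MutL subunit known from meiotic crossovers and loop repair, showed the largest difference of the members between T98G sgCon and LN229 sgCon after MGMT. It had 17.7, 16.9 and 16.3 CPM in U118-MG sgDDA1, 43.1, 41.6 and 35.3 CPM in T98G sgDDA1 and 3.96, 3.03 and 2.77 CPM in LN229 sgDDA1, with wide gaps between the lines. In T98G sgCon it stood at 32.5 ± 0.318 CPM and in LN229 sgCon at 2.66 ± 0.201 CPM (SD, n = 3 each), a 12.2-fold difference (log2 3.61, SE 0.10, edgeR adjusted p = 2.79e-26). U118-MG sgDDA1 was 5.22-fold above LN229 sgDDA1 (log2 2.38, SE 0.20, adjusted p = 1.15e-09) and below T98G sgDDA1 by -1.24 on the log2 scale (SE 0.19, adjusted p = 7.27e-06).

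PMS2, which carries the endonuclease of the main MutL complex, had 29.8, 27.2 and 28.3 CPM in U118-MG sgDDA1, 43.2, 43.2 and 42.0 CPM in T98G sgDDA1 and 40.6, 44.1 and 42.4 CPM in LN229 sgDDA1. U118-MG lay below T98G by -0.59 (SE 0.08, edgeR adjusted p = 2.21e-06) and below LN229 by -0.58 (SE 0.08, adjusted p = 1.91e-06), while the T98G and LN229 sgDDA1 libraries overlapped. T98G sgCon exceeded LN229 sgCon by 0.29 (SE 0.05, adjusted p = 2.77e-06), and by 0.09 without passing when scaled by library totals. The table also counts 12 PMS2 relatives and pseudogenes, with PMS2CL at 42.6%, PMS2P3 at 28.2% and PMS2P1 at 27.9% of the PMS2 counts, so PMS2 values are uncertain where reads could be shared. PMS1, a MutL subunit with no settled repair role, had 43.7, 45.1 and 43.5 CPM in U118-MG sgDDA1, 32.6, 31.3 and 31.7 CPM in T98G sgDDA1 and 45.8, 48.9 and 47.8 CPM in LN229 sgDDA1. It was higher in U118-MG than in T98G by 0.47 (SE 0.13, adjusted p = 0.00467), a call lost with library totals (0.29). Against LN229 the difference of -0.11 (95% interval -0.38 to 0.17) did not pass, but it was -0.58 and called with library totals and -0.14 and called in a fit of those groups alone. T98G sgCon lay below LN229 sgCon in PMS1 by -0.26 (SE 0.05, adjusted p = 3.07e-05), a call lost in the fit of all 18 libraries.

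EXO1, the exonuclease that removes the strand carrying the mismatch, was lowest in U118-MG. It had 35.4, 49.9 and 45.2 CPM in U118-MG sgDDA1, 110, 116 and 119 CPM in T98G sgDDA1 and 193, 209 and 213 CPM in LN229 sgDDA1. U118-MG sgDDA1 was 2.64-fold below T98G sgDDA1 (log2 -1.40, SE 0.14, edgeR adjusted p = 1.82e-08) and 4.71-fold below LN229 sgDDA1 (log2 -2.24, SE 0.14, adjusted p = 7.7e-12). T98G sgCon lay below LN229 sgCon by -0.44 (SE 0.04, adjusted p = 4.92e-12). MKI67, a proliferation marker, had 459 ± 71.0 CPM in U118-MG sgDDA1, 518 ± 27.6 CPM in T98G sgDDA1 and 439 ± 19.3 CPM in LN229 sgDDA1, so it did not share the low level of EXO1 in U118-MG.

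**Figure D2:**
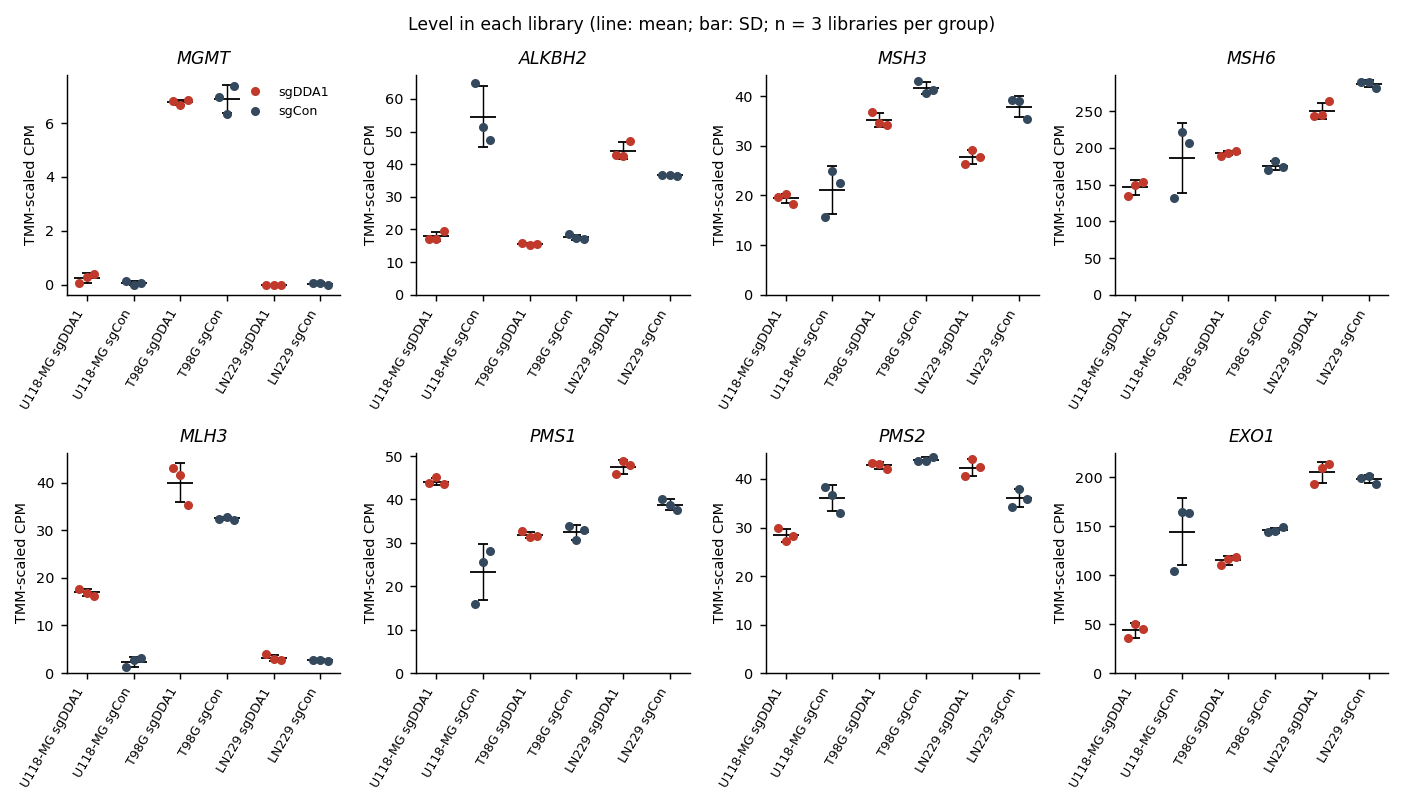
TMM-scaled CPM of each member in each of the 18 libraries (points; lines and bars are the mean and SD of 3 libraries), sgDDA1 in red and sgCon in dark blue. MGMT lies between 6.35 and 7.39 CPM in the T98G libraries and at or below 0.404 CPM elsewhere, MLH3 is high in T98G and intermediate in U118-MG sgDDA1, and the libraries labelled U118-MG sgCon lie near LN229 for MGMT and MLH3.

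**Figure D3:**
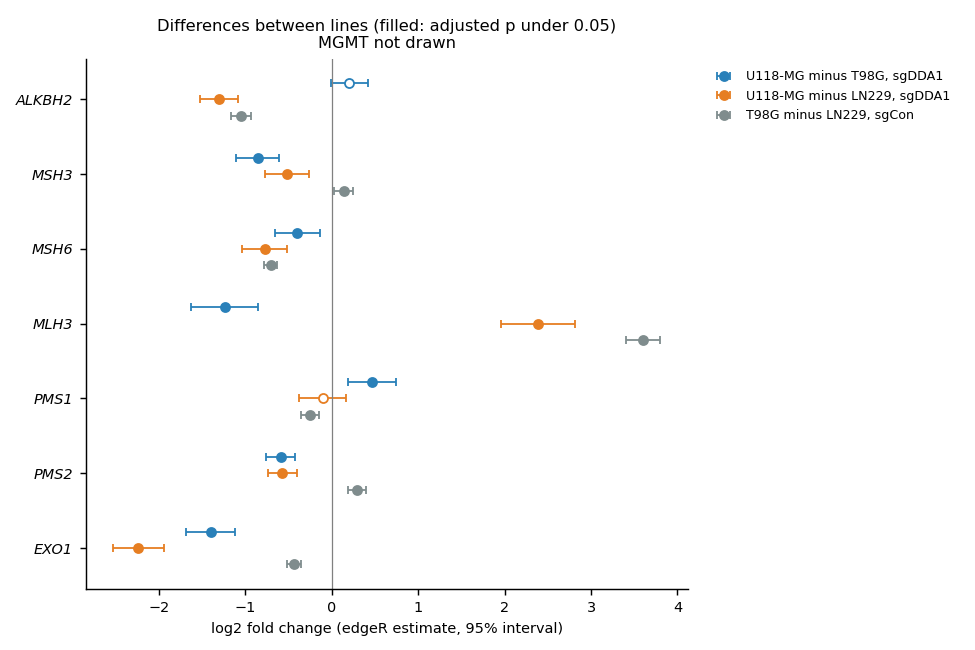
Log2 fold changes of the 7 members other than MGMT with 95% intervals for U118-MG over T98G (sgDDA1), U118-MG over LN229 (sgDDA1) and T98G over LN229 (sgCon), filled where the adjusted p was under 0.05. MLH3 lies at 3.61 for T98G over LN229, and EXO1 at -1.40 and -2.24 for U118-MG over T98G and over LN229.

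The guide was compared with the control guide within T98G and within LN229, in a fit of those 12 libraries. In T98G sgDDA1 the calls were MLH3 and MSH6 higher and ALKBH2, MSH3 and EXO1 lower, and in LN229 sgDDA1 ALKBH2, MLH3, PMS1 and PMS2 higher and MSH3 and MSH6 lower. MGMT in LN229 is given as counts with no test, since the gene is in the fit only through the T98G libraries. Every called change of the members was under 1.5-fold, between -0.45 and 0.30 on the log2 scale. In T98G 2 members were called higher and 3 lower, where 43.4% of 23082 genes were called (21.6% higher, 21.8% lower). In LN229 4 of the 7 other than MGMT were higher and 2 lower, where 50.4% were called (28.9% higher, 21.5% lower). The median log2 fold change of the 8 was -0.03 in T98G, against 0.00 over all genes, and that of the other 7 was 0.24 in LN229, against 0.07 over all genes.

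Most of these calls depend on which libraries estimate the spread. In a fit of all 18 libraries edgeR called 0 of the 8 members in T98G (1 at an unadjusted p under 0.05), where 22.1% of genes were called, and 3 in LN229, ALKBH2, MSH3 and PMS2, where 29.4% were called. DESeq2 on the 12 libraries called 5 members in T98G and 7 in LN229, MGMT included.

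**Figure D4:**
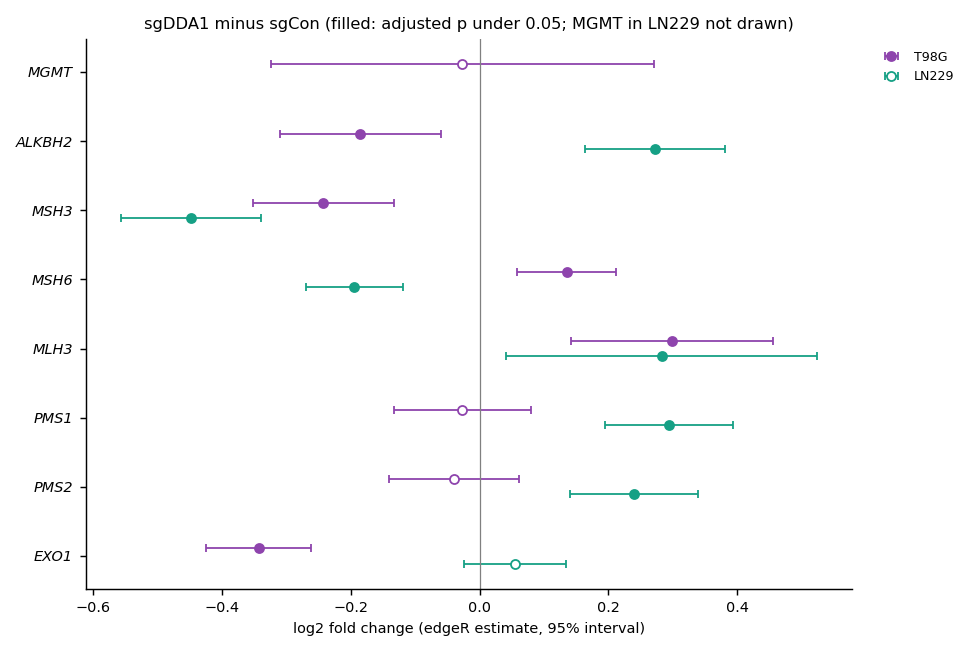
Log2 fold change of sgDDA1 over sgCon for the 8 members with 95% intervals, T98G in purple and LN229 in green, filled where the adjusted p was under 0.05. MGMT is drawn for T98G only. MSH3 lies below 0 and MLH3 above 0 in both lines, while ALKBH2 and MSH6 lie on opposite sides of 0 in the 2 lines.

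Among the damage-reversal genes, MGMT in T98G averaged 6.77 ± 0.0997 CPM with sgDDA1 and 6.90 ± 0.526 CPM with sgCon (SD, n = 3 each). The groups overlapped, and the log2 fold change of -0.03 had a 95% interval of -0.32 to 0.27 (edgeR adjusted p = 0.916). In LN229 MGMT was at 0 counts in all sgDDA1 libraries and at 6, 4 and 0 counts with sgCon, so the groups overlapped at 0. Over summed counts MGMT was 2.66-fold lower with sgDDA1 when set against 3 counts over the sgDDA1 group. That value rests on 10 reads and leaves out their own counting error and the scatter between libraries. By counting error alone, the 95% interval was 0.0252 to 0.0966 CPM with sgCon and 0 to 0.0243 CPM with sgDDA1. ALKBH2 had 15.9, 15.1 and 15.6 CPM in T98G sgDDA1 against 18.5, 17.3 and 17.2 CPM in T98G sgCon, and fell with no overlap (-0.18, SE 0.06, edgeR adjusted p = 0.0141), a call lost without T98G sgCon 1 (-0.15). In LN229 it had 42.8, 42.5 and 47.1 CPM with sgDDA1 against 36.7, 36.6 and 36.5 CPM with sgCon, and rose with no overlap (0.27, SE 0.05, edgeR adjusted p = 5.63e-05).

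Of the recognition subunits, MSH3 fell in both lines. It had 36.8, 34.6 and 34.2 CPM in T98G sgDDA1 against 43.0, 40.7 and 41.2 CPM in T98G sgCon (-0.24, SE 0.05, edgeR adjusted p = 0.000374). In LN229 it had 26.4, 29.2 and 27.6 CPM with sgDDA1 against 39.2, 39.0 and 35.4 CPM with sgCon (-0.45, SE 0.05, edgeR adjusted p = 1.58e-08). In neither line did the groups overlap. MSH6 had 190, 193 and 196 CPM in T98G sgDDA1 against 171, 183 and 174 CPM in T98G sgCon, and rose (0.14, SE 0.04, edgeR adjusted p = 0.00354), a call lost without T98G sgDDA1 2 or 3 (0.10 in each case). In LN229 it had 243, 245 and 263 CPM with sgDDA1 against 290, 290 and 282 CPM with sgCon, and fell (-0.19, SE 0.04, edgeR adjusted p = 3.89e-05).

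Of the MutL subunits, MLH3 had 43.1, 41.6 and 35.3 CPM in T98G sgDDA1 against 32.5, 32.9 and 32.2 CPM in T98G sgCon, and rose with no overlap (0.30, SE 0.08, edgeR adjusted p = 0.00175). In LN229 it had 3.96, 3.03 and 2.77 CPM with sgDDA1 against 2.73, 2.82 and 2.44 CPM with sgCon, where the groups overlapped. The LN229 difference (0.28, SE 0.12, edgeR adjusted p = 0.0459) was lost in 8 of 14 alternatives, among them without LN229 sgDDA1 1 (0.12), without LN229 sgCon 1 (0.30) and without LN229 sgCon 3 (0.23). PMS1 in LN229 rose to 45.8, 48.9 and 47.8 CPM with sgDDA1, against 40.1, 38.7 and 37.5 CPM with sgCon (0.29, SE 0.05, edgeR adjusted p = 5.96e-06). PMS2 in LN229 rose to 40.6, 44.1 and 42.4 CPM with sgDDA1, against 34.2, 37.9 and 36.0 CPM with sgCon (0.24, SE 0.05, edgeR adjusted p = 0.000107). Neither passed in T98G, where PMS1 averaged 31.9 ± 0.688 CPM with sgDDA1 and 32.5 ± 1.70 CPM with sgCon (-0.03, 95% interval -0.13 to 0.08), and PMS2 42.8 ± 0.709 and 44.0 ± 0.472 CPM (-0.04, interval -0.14 to 0.06).

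EXO1 fell in T98G to 110, 116 and 119 CPM with sgDDA1, against 144, 145 and 149 CPM with sgCon, with no overlap (-0.34, SE 0.04, edgeR adjusted p = 1.23e-08). In LN229 it had 193, 209 and 213 CPM with sgDDA1 against 199, 201 and 193 CPM with sgCon, and the difference of 0.05 (95% interval -0.02 to 0.13, edgeR adjusted p = 0.25) did not pass. It passed there with library totals (0.10) and without LN229 sgDDA1 1 (0.10). MKI67 was lower with sgDDA1 in both lines, by -0.12 in T98G and by -0.45 in LN229.

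The difference between the T98G and the LN229 response was then tested as such, in the same fit. It passed for 6 of the 7 members other than MGMT, 2 higher and 4 lower in T98G, where 39.2% of genes were called (18.3% higher, 20.9% lower). With library totals 34.4% of the called genes were higher, against 46.6% with TMM. ALKBH2 (-0.46, SE 0.08, edgeR adjusted p = 2.33e-05) and MSH6 (0.33, SE 0.05, adjusted p = 4.72e-06) were called in opposite directions in the lines. EXO1 (-0.40, SE 0.06, adjusted p = 5.07e-07) was lower in T98G alone, and PMS1 (-0.32, SE 0.07, adjusted p = 0.00046) and PMS2 (-0.28, SE 0.07, adjusted p = 0.0015) were higher in LN229 alone. MSH3 fell less in T98G than in LN229 (0.21, SE 0.08, adjusted p = 0.0305), a call lost in 8 of 19 alternatives, among them without LN229 sgCon 1 or 2, LN229 sgDDA1 1, T98G sgCon 2 or 3, or T98G sgDDA1 1 (0.17 to 0.20). The MLH3 responses differed by 0.02 (95% interval -0.28 to 0.31). In the fit of all 18 libraries the difference passed for ALKBH2 alone of the members, where 17.3% of genes were called.

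Within U118-MG as labelled, 2 of the 7 members other than MGMT were higher with sgDDA1 and 4 lower, where 72.2% of genes were called (35.3% higher, 36.9% lower), and 36.6% of the called genes were higher with library totals, against 48.9% with TMM. The comparison sets U118-MG sgDDA1 against libraries that resemble LN229, so the guide and the line cannot be told apart in it. MLH3 had 17.7, 16.9 and 16.3 CPM with sgDDA1 against 1.20, 2.68 and 3.24 CPM in the libraries labelled U118-MG sgCon (log2 2.83, SE 0.21, edgeR adjusted p = 1.41e-10). EXO1 had 35.4, 49.9 and 45.2 CPM with sgDDA1 against 105, 165 and 163 CPM (-1.73, SE 0.14, adjusted p = 4.37e-10). For comparison, LN229 sgCon averaged 2.66 CPM of MLH3 and 198 CPM of EXO1, and T98G sgCon 32.5 and 146 CPM. ALKBH2 (-1.61, SE 0.10), PMS1 (0.92, SE 0.13) and PMS2 (-0.34, SE 0.08) were also called, PMS2 not without the filter (-0.26). In PMS1 the libraries labelled U118-MG sgCon had 15.9, 25.6 and 28.2 CPM, below every library of the other groups. MGMT had 30 counts in all with sgDDA1 against 11 in the libraries labelled U118-MG sgCon, a ratio of 2.75 (95% exact interval 1.34 to 6.09, counting error only), and the groups overlapped. MSH6 (-0.35) overlapped between the groups and was called, but not without sgCon 2 (-0.21), sgCon 3 (-0.27) or sgDDA1 1 (-0.29). MSH3 (-0.12, 95% interval -0.37 to 0.14) was not called, and was called with library totals (-0.52) and on leaving out sgCon 1 (-0.30).

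Genes that work beside the members in mismatch repair and in the resynthesis of the cut strand were counted next. Of 21 such genes, 3 were higher, 10 lower and 8 not called with sgDDA1 in T98G (median -0.11, against 0.00 over all genes), and 5 were higher, 9 lower and 7 not called in LN229 (median -0.06, against 0.07). Of all genes, 21.6% were called higher and 21.8% lower in T98G, and 28.9% higher and 21.5% lower in LN229, the shares against which this list and the next 3 are to be read. FEN1, the flap endonuclease, was lower in T98G (-0.37, SE 0.04) and LN229 (-0.34, SE 0.04), as was MCM8, a helicase subunit (-0.33, SE 0.04, and -0.19, SE 0.04). MCM9, its partner helicase, fell in LN229 (-0.58, SE 0.06) and had 0.05 (SE 0.06) in T98G, which did not pass. The meiotic MutS subunit MSH5 rose in both (0.74, SE 0.09, and 0.78, SE 0.09), while its partner MSH4 fell in LN229 (-0.71, SE 0.23) and did not pass in T98G (0.92, SE 0.48). Between the controls, T98G lay below LN229 in MSH4 (-4.39, SE 0.34) and MCM9 (-1.60, SE 0.06), and above it in POLD4, a DNA polymerase delta subunit (2.10, SE 0.14). SETD2, the methyltransferase of the histone mark that MSH6 binds, is named after its values were seen, as a description, with 0.31 (SE 0.04) in T98G and -0.45 (SE 0.04) in LN229.

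Of 15 genes of direct reversal and of the excision of other methylated bases, 3 were higher and 7 lower in T98G (median -0.11, against 0.00 over all genes) and 3 higher and 9 lower in LN229 (median -0.16, against 0.07), where 43.4% and 50.4% of all genes were called. ALKBH1, a relative of ALKBH2, fell in T98G (-0.22, SE 0.07) and LN229 (-0.43, SE 0.06). PARP1, which senses the strand breaks of base excision, fell by similar amounts (-0.21, SE 0.04, and -0.24, SE 0.03) and stood lower in T98G sgCon than in LN229 sgCon by -1.96 (SE 0.04, edgeR adjusted p = 4.31e-31). PARP2, its relative, fell too (-0.31, SE 0.05, and -0.16, SE 0.05), as did ASCC3, the helicase that works with ALKBH3 (-0.22, SE 0.04, and -0.15, SE 0.04). ASCC2, of the same complex, fell in LN229 (-0.42, SE 0.04) and did not pass in T98G (-0.04, SE 0.04). Between the controls PARP2 (-1.27, SE 0.05) and the ligase LIG3 (-1.13, SE 0.05) were also lower in T98G than in LN229.

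The genes that write, read and erase DNA methylation, which acts on the MGMT promoter, gave 4 higher and 4 lower of 11 in T98G (median 0.00, against 0.00 over all genes) and 3 higher and 7 lower in LN229 (median -0.21, against 0.07), where 43.4% and 50.4% of all genes were called. The de novo methyltransferases rose in both lines, DNMT3A in T98G (0.70, SE 0.06) and LN229 (0.49, SE 0.05), and DNMT3B in T98G (0.24, SE 0.06) and LN229 (0.93, SE 0.05). MBD3, a reader-family subunit of the NuRD complex, fell in T98G (-0.28, SE 0.06) and LN229 (-0.89, SE 0.06). The demethylating enzyme TET1 rose in T98G (0.78, SE 0.08) and LN229 (0.27, SE 0.05), and was lower in T98G sgCon than in LN229 sgCon by -3.09 (SE 0.07, edgeR adjusted p = 9.39e-29). TET2 fell in LN229 (-0.50, SE 0.04) and had -0.01 (SE 0.04) in T98G, which did not pass, and GADD45A, a stress gene tied to demethylation, fell in T98G (-0.49, SE 0.05) and did not pass in LN229 (0.06, SE 0.05). Beside these, the change of MGMT in T98G did not pass.

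Of 14 genes that signal from the futile cycle to the checkpoint, 1 was higher and 8 lower in T98G (median -0.25, against 0.00 over all genes), and 2 were higher and 6 lower in LN229 (median -0.08, against 0.07), where 21.8% and 21.5% of all genes were called lower. CLSPN, the mediator between ATR and its effector kinase, fell in T98G (-0.66, SE 0.04) and LN229 (-0.55, SE 0.04), as did the clamp subunit HUS1 (-0.52, SE 0.07, and -0.67, SE 0.07) and the phosphatase CDC25A (-0.67, SE 0.04, and -0.32, SE 0.04). ATRIP, the partner of ATR, fell in LN229 (-0.52, SE 0.07) and did not pass in T98G (-0.11, SE 0.08). Between the controls T98G lay below LN229 in CDC25A (-1.64, SE 0.04) and ATRIP (-0.70, SE 0.07) and above it in the clamp subunit RAD1 (0.72, SE 0.05).

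The members sit beside genes that were read for comparison (GENCODE 29, GRCh38). MGMT is on chromosome 10 (129467184 to 129768007, plus strand), 496657 bases from the start of EBF3, a transcription factor gene with 0.619 ± 0.130 CPM in T98G sgCon and 32.0 ± 1.46 CPM in LN229 sgCon (-5.69, SE 0.12, edgeR adjusted p = 8.81e-29), the reverse of MGMT. GLRX3, 669215 bases away, did not differ beyond its test between these controls (-0.05, SE 0.04) and fell with sgDDA1 in T98G (-0.51, SE 0.05) and LN229 (-0.39, SE 0.04). MSH3 is on chromosome 5 (80654648 to 80876460, plus strand). PMS2 (chromosome 7, 5973239 to 6009125, minus strand) starts 120 bases from AIMP2, a scaffold of the tRNA synthetase complex, which fell by -0.62 (SE 0.05) in T98G and -0.61 (SE 0.05) in LN229, while PMS2 did not pass in T98G and rose in LN229. ALKBH2 (chromosome 12, 109088188 to 109093631, minus strand) starts 3943 bases from UNG, the uracil glycosylase, which fell by -0.17 (SE 0.05) in T98G and -0.74 (SE 0.04) in LN229, where ALKBH2 rose. PMS1 (chromosome 2, 189784085 to 189877629, plus strand) overlaps the start of ORMDL1, and MSH6 (chromosome 2, 47695530 to 47810101, plus strand) overlaps FBXO11, each on the other strand. No source used here states whether counting took account of strand, so reads of overlapping pairs cannot be told apart. ORMDL1 was lower in LN229 (-0.15, SE 0.06) and did not pass in T98G (-0.08, SE 0.06), and FBXO11 was higher in T98G (0.18, SE 0.04) and did not pass in LN229 (-0.05, SE 0.04). MLH3 (chromosome 14, 75013764 to 75051532, minus strand) and EXO1 (chromosome 1, 241847967 to 241895148, plus strand) have no overlapping gene among those read. ACYP1, near MLH3, rose in T98G (0.40, SE 0.08) and did not pass in LN229 (-0.11, SE 0.08).

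The genes whose log2 CPM followed those of a member most closely over the 12 T98G and LN229 libraries were ranked among 14414 genes, as a description. Among the 5 closest to MGMT were TALDO1, ZNFX1, MYD88 and SNX19, each with a Pearson correlation of 0.999, and all are higher in T98G than in LN229 irrespective of the guide. MYD88 for example averaged 85.2 CPM in T98G sgDDA1, 81.7 CPM in T98G sgCon, 0.623 CPM in LN229 sgDDA1 and 0.703 CPM in LN229 sgCon. For EXO1 the 5 were GXYLT1 (0.994), UAP1, EPRS1 and CLASP2 (0.993 each) and DOCK4 (0.992). The points share their line, so such values mainly restate the difference between T98G and LN229.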

How the data were processed

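Gene expression was measured by RNA sequencing in 18 libraries, 3 for each of 6 groups taken from the labels. Per the labels' protocols total RNA was obtained with Trizol. Per the submitters' processing notes the tools were fastp 0.19.6, STAR 2.4.0, HTSeq 0.12.4 and DESeq2, with GRCh38. Strand use is not stated. The authors deposited raw counts per gene and FPKM, made with 1 length per gene. Data columns left without a sample numbered 0.

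Own computations used R 4.3.3. Counts passing filterByExpr by group were TMM-scaled and entered edgeR 4.0.16 (quasi-likelihood), with Benjamini-Hochberg adjustment across every gene in the fit and calls at 0.05. T98G and LN229 were compared on their 12 libraries, because the libraries labelled U118-MG sgCon were known to resemble LN229 and to vary, and comparisons with U118-MG on all 18. Alternatives were RLE scaling, no filter, DESeq2 1.42.0, other sets of libraries, a replicate block, halved counts (57.4% to 63.7% of counts between 1 and 19 were even, a share no source explains), library totals, and leaving out each library. Library totals of 44.9 to 94.1 M put 3 counts at 0.0319 to 0.0668 CPM. Floors, exact intervals and intervals of summed counts cover counting error only. Intervals of log2 fold changes come from the edgeR fit and include the spread between libraries. The procedure was run on counts simulated with the spread fitted to the 12 T98G and LN229 libraries, so that run cannot test the spread. Its changes were placed in T98G sgDDA1 alone, in genes above a limit on counts. Correlations used log2 of CPM plus 0.5. The ranking of genes against a member took genes with a mean of at least 1 CPM. Correlations between libraries took all genes that passed the filter, and those of replicate numbers took genes with a mean of at least 10 CPM.

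The members, lists and tests were chosen with earlier results of these data known. The text names all members, DDA1, neighbouring genes, up to 3 called genes per list with the largest changes and a mean of at least 1 CPM, and the closest correlates. SETD2 was chosen after its values were seen, and a few of the genes picked this way are left out here.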

Additional observations from a re-analysis of the deposited data

Results flagged for a closer look

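The sgDDA1 response differed between T98G and LN229 for 6 of the 7 members other than MGMT by the test of the difference itself in edgeR. The T98G response minus the LN229 response was -0.46 for ALKBH2, 0.21 for MSH3, 0.33 for MSH6, -0.32 for PMS1, -0.28 for PMS2 and -0.40 for EXO1 on the log2 scale. For comparison, 39.2% of all genes tested passed the same test. In the fit of all 18 libraries the difference passed for ALKBH2 alone, where 17.3% of genes passed. MSH3 lost its call in 8 of 19 alternatives. DDA1 RNA also differed in its response, by 0.33 (SE 0.07, edgeR adjusted p = 0.000209), with the larger fall in LN229, and the part of the DDA1 level in these differences was not tested.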

How the results depend on the processing

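The libraries used to estimate the spread mattered most. With all 18 libraries in the fit, 7185 genes (11632 with 12 libraries) and 3 members (7) were called in LN229, 5402 genes (10013) and 0 members (5) in T98G, and 4227 genes (9044) and 1 member (7) for the difference of responses, while the fold changes of the members kept their sign. MGMT, in these fits only through T98G, is among the 7 and 7 members of the 12-library fit in LN229 and for the difference. Among values of single members under all alternatives, 730 kept their direction and call, 46 lost the call, 8 gained it and 13 changed sign. The changes of sign were in the difference of the MLH3 responses with RLE (-0.00863), DESeq2 (-0.00942), library totals (-0.0782) and without single libraries (-0.0818 to 0.175), in MSH3 of T98G sgCon against LN229 sgCon with library totals (-0.0695), and without single libraries in T98G PMS1 (-0.0631 to 0.00374) and MGMT (-0.0792 to 0.025) and in MSH3 of U118-MG as labelled (-0.297 to 0.0227). Leaving out each library in turn gave 10397 to 11005 genes in LN229, 9204 to 9363 in T98G and 8421 to 8732 for the difference of responses, with 6 to 7, 4 to 5 and 6 to 7 members called. MGMT in LN229 was not tested in a fit of those groups alone, where it fell under the filter. Replicate numbers did not pair the samples in every line. Deviations of libraries with the same number correlated at 0.0338 to 0.172 in LN229, at -0.0916 to -0.0447 in T98G and at -0.11 to 0.137 in U118-MG. Each sgDDA1 library correlated best with the sgCon library of its own number in LN229 but not in T98G. With the replicate block 11449 genes were called in LN229, 9797 in T98G and 8806 for the difference of responses, and the number of members called stayed at 7, 5 and 7. Depth limits MGMT in U118-MG and LN229, where libraries held 0 to 16 counts.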
